A study of Mus musculus with 8 samples.

Results

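The 47 genes described here encode the transport machinery and the gate of the primary cilium. They are subunits of the intraflagellar transport (IFT) trains and their return motor, the BBSome and its assembly factors, proteins that deliver membrane cargo, the Evc pair, and proteins of the transition zone at the cilium base. The members were given as a list of gene names grouped by function. The list uses no measured value as a criterion, but it was drawn up with earlier results of these data known. All 47 were found by symbol among the 43629 gene IDs of the deposited tables, and all 47 passed the filter on low counts and were among the 15382 genes tested. Transcript levels were measured by RNA sequencing of dorsal forebrain from male mouse embryos of a mixed background with C57BL/6J at E12.5. The 4 Sufu-cKO samples carried Emx1-cre on 1 allele together with both Sufu alleles floxed. The 4 controls carried floxed Sufu on both alleles or on 1, and the labels do not say which control had which. The labels name Emx1-cre for no control, so Sufu loss and the cre allele itself cannot be told apart here. Emx1-cre acts in dorsal telencephalic progenitors and their progeny, so vessels, blood and other cells of the dissected tissue keep Sufu. Samples are named as in the labels, with Cont for controls and Mut for Sufu-cKO, and per-sample values follow the order Cont_294, Cont_345, Cont_365, Cont_370, Mut_295, Mut_317, Mut_337, Mut_340. The labels do not say whether samples were separate litters or pools, so p-values measure only the spread between these samples, which may in part be technical.

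The primary cilium is a single, non-motile, microtubule-based projection carried by most neural progenitors. IFT-B trains driven by kinesin-2 carry cargo to the tip, and IFT-A trains with dynein-2 bring it back. The transition zone gates what enters, and the BBSome helps receptors leave. Vertebrate hedgehog signalling runs through this organelle: Ptch1 and Smo exchange places in its membrane, and the Gli factors and their inhibitor Sufu pass through its tip. Sufu acts downstream of the cilium, on the Gli proteins themselves.

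Levels of these transcripts differed little between the genotypes while the hedgehog readout rose strongly. Of the 47 members, Bbs1 and Ttc21b were called higher in Sufu-cKO at an adjusted p under 0.05 and none was called lower. That is 4.26% of members, beside 11.0% of all tested genes called in either direction (5.34% higher and 5.64% lower). The members' median log2 fold change was 0.07, beside 0.01 over all tested genes, and they ranged from -0.17 for B9d2 to 0.35 for Bbs7. The estimate lay within 0.2 of 0 on the log2 scale for 41 of 47. Levels are given as CPM, counts relative to the scaled library size. Fold changes and adjusted p-values are from edgeR's quasi-likelihood test. Standard errors (SE) were derived from that test, as the absolute log2 fold change over the square root of its F statistic.

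The genotype was checked on Sufu and on the hedgehog targets Gli1 and Ptch1. Sufu stood at 106, 125, 112 and 105 CPM in the controls and at 44.8, 44.5, 37.4 and 35.9 CPM in Sufu-cKO. It fell by 1.46 on the log2 scale (SE 0.087, adjusted p = 1.07e-06). Gli1, a transcription factor induced by the pathway, went from 2.65 ± 0.99 to 49.5 ± 3.93 CPM (SD, n = 4 each), a log2 fold change of 4.21 (adjusted p = 5.46e-06). Ptch1, the receptor that the pathway induces as feedback, rose by 3.39 on the log2 scale (adjusted p = 8.48e-07). All 3 genes separated the genotypes with no overlap. Total counts per sample ran from 27514357 to 34878838, and members had 199 to 3330 reads in each sample.

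**Figure D1:**
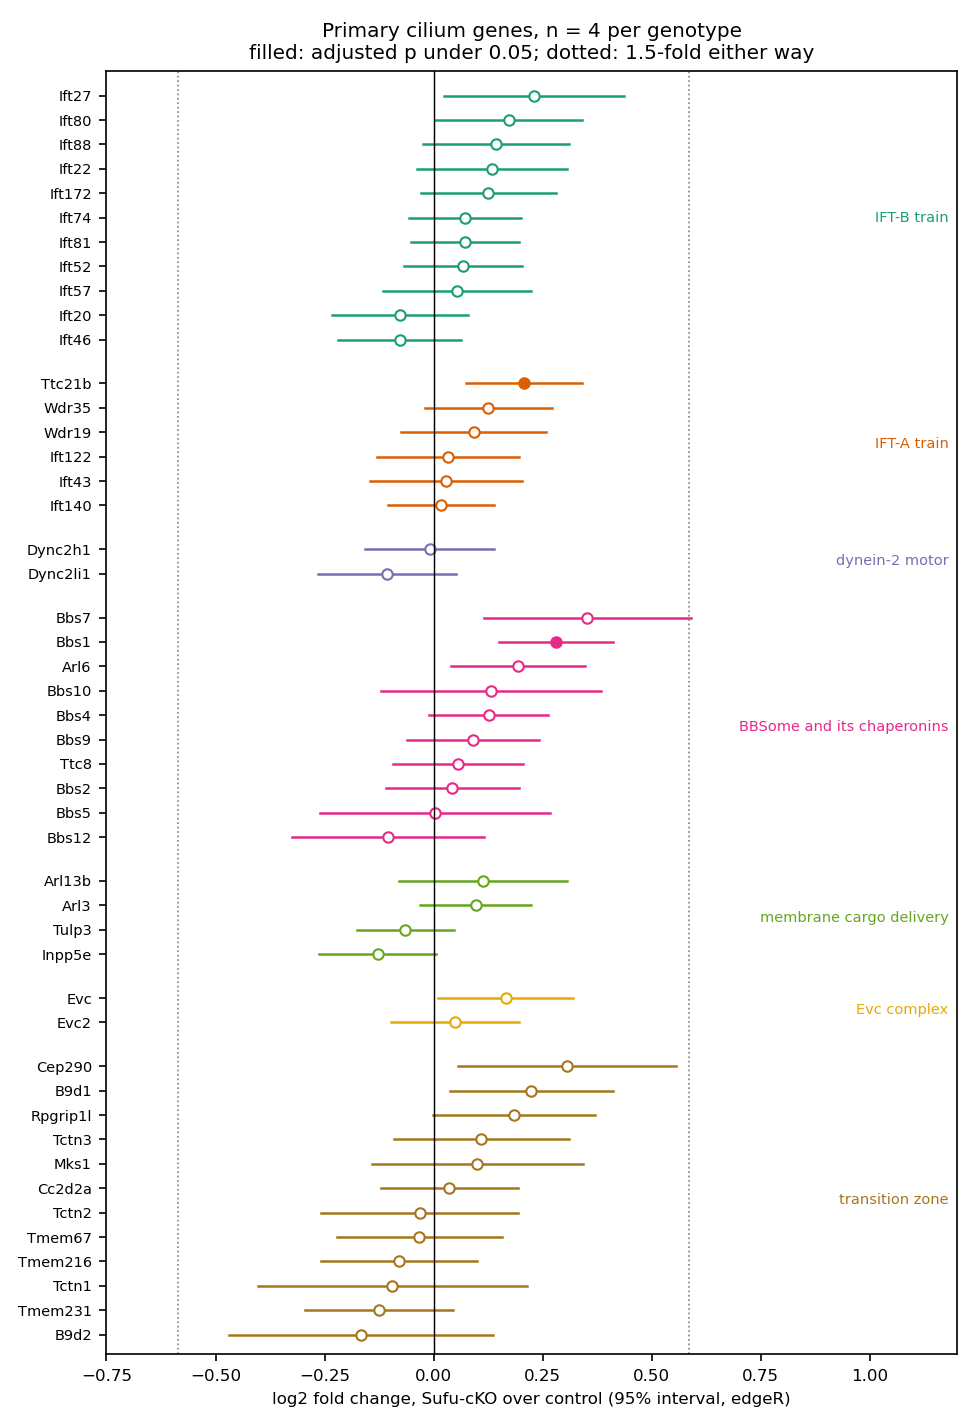
Log2 fold change of each of the 47 members, Sufu-cKO over control, with its 95% interval (n = 4 per genotype), grouped and coloured by role. Filled points are the called members, Bbs1 and Ttc21b, and dotted lines mark 1.5-fold in either direction, which the interval passes for Bbs7 alone.

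These estimates had a limited precision. SEs of the members ran from 0.051 to 0.141 on the log2 scale. The 95% interval lay inside a 1.5-fold change in both directions for 46 of 47 members, the exception being Bbs7, whose upper bound was 1.51-fold. It lay inside 1.25-fold for 33 of 47. The lowest bound of any member was -0.47, for B9d2, the member with the fewest reads.

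More members stood above the control mean than below it, by small amounts. Estimates were above 0 for 34 members and below 0 for 13, or 72.3% above, beside 51.8% of all tested genes and 52.6% of the 7194 tested genes whose mean level lay in the members' own range of 8.74 to 93.5 CPM. An unadjusted p under 0.05 was reached by 9 members (19.1%), all 9 higher in Sufu-cKO, beside 22.5% of all tested genes (1780 higher and 1682 lower). Over both directions together, the share of members is thus no larger than that background. By direction they differed, since all 9 were higher while the background was split nearly evenly. The counts for the roles below are to be read against the same background. The size of the differences was ordinary, since the median absolute log2 fold change was 0.10 for the members, 0.10 for genes of that level range and 0.12 for all tested genes. Summed over the 47 members, levels came to 1765 to 1884 CPM in the controls and 1902 to 1961 CPM in Sufu-cKO. These sums did not overlap, but Cont_294 and Mut_337, the nearest across genotypes, lay closer together than the highest and lowest control. The sums weigh members with high levels most. The genotypes did overlap in the members' median log2 difference from the control mean. By that measure Cont_294 stood at 0.046, above Mut_317 at 0.040 and Mut_337 at 0.032. Another scaling moved the count: 32 of 47 were above 0 with upper-quartile scaling, where the median of all tested genes was -0.01.

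The genotypes did not overlap for 7 members, or 5 above and 2 below, beside 16.2% of tested genes whose samples did not overlap (8.33% above and 7.86% below). Those above were Bbs1, Ttc21b, Bbs4, Arl6 and Cep290, and those below were Tulp3 and Inpp5e. In the authors' deposited table, 0 of 47 members had a false discovery rate under 0.05, against 9.34% of the tested genes, and 4 had p under 0.05. The lowest rate for a member in the authors' deposited table was 0.0959, for Bbs7. DESeq2 called 3 members (Bbs1, Ttc21b and Bbs7) and 13.8% of all genes, and limma-voom called Bbs1 and 11.2%.

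Both called members, and the transcript with the largest estimate, are shown with promoter sequence, beside 4 further members that hold the same motif as Bbs7, because that motif was more frequent in member promoters than in those of other genes. Regulatory factor X (RFX) proteins bind the X-box, a pair of inverted arms, and are known regulators of ciliary genes. Promoter windows from RefSeq (GRCm38.p6), running from 250 bases before to 50 after the start site, were found for 42 of the 47 genes, as 46 windows of 300 bases. Tmem67, Ift80, Ift122, Ift81 and Dync2li1 had no entry. Each sequence below is written 5′ to 3′ on the strand of its gene. In the 2 whole windows capitals mark X-box and CCAAT-box matches on either strand, and in the shorter stretches capitals mark the X-box with both arms and lower case its flanks.
Bbs1, chr19:4906578-4906877, minus strand: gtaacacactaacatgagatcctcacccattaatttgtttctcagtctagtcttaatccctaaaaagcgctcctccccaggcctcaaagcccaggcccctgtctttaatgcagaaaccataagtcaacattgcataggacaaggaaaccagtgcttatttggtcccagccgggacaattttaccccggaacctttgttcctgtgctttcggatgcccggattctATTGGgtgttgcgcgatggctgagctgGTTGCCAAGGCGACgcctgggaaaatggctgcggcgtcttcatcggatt
Ttc21b, chr2:66256568-66256867, minus strand: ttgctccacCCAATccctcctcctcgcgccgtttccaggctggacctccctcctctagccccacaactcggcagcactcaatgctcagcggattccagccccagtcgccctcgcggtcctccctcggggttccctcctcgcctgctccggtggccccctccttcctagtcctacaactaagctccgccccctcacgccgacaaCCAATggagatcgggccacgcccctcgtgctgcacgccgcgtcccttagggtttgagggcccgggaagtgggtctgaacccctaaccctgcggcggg
Bbs7, chr3:36613477-36613530, minus strand: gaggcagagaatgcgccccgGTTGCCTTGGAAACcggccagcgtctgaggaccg
Ift57, chr16:49699214-49699266, plus strand: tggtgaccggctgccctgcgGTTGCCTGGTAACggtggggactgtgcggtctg
Mks1, chr11:87853171-87853224, plus strand: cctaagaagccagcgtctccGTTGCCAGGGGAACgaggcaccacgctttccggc
Tctn3, chr19:40612339-40612391, minus strand: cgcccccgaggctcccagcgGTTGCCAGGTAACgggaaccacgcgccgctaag
Tctn1, chr5:122264411-122264444, minus strand: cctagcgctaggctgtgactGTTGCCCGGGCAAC
The Tctn1 stretch stops where its window ends. The 5 short stretches hold both arms within 13 or 14 bases. They lie at -121 to -108 in Bbs7, -60 to -48 in Ift57, -24 to -11 in Mks1, -140 to -128 in Tctn3 and 36 to 49 in Tctn1, with the start site as position 0.

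Matches to X-box arms were more frequent in member promoters than in those of other genes. The half-site GTTGCC, on either strand, occurred in 19 of 46 member windows (41.3%), beside 13.0% of the 14110 windows of tested genes (the share over all 32851 RefSeq windows was close to that). Both arms, written GTTNCC and GGNAAC with 0 to 3 bases between them, occurred in 5 windows (10.9%), beside 0.907% and 0.804%. A wide form of the X-box consensus, which also has both arms but allows other letters in them, occurred in 6 windows. These (13.0%) were in B9d2, Bbs1, Ift57, Tctn1, Tctn2 and Tctn3, beside 1.74% and 1.53%. The wide form does not contain the first form, since Bbs7 and Mks1 match only the first. These 3 counts overlap. A half-site is contained in each of the 5 matches to the first form, and 3 of those 5 windows also match the wide form. The motifs were settled with their matches already seen, so the shares are a description, without a test.

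Of the 2 called members, Bbs1 held the half-site and the wide form, whose match at positions 1 to 14 has both arms. It did not match the form written GTTNCC and GGNAAC. Ttc21b held none of these forms in its window. The CCAAT box (CCAAT on either strand) was found in 28 of 46 member windows (60.9%), beside 37.2% of tested-gene windows, in both Bbs1 and Ttc21b. The letters GACCACCCA, a Gli binding site, were found in 0 of 46 member windows and in 0.198% of tested-gene windows. Further motifs were closer to the tested genes: the GC box GGGGCGGGG in 26.1% beside 20.7%, the NRF1 site in 13.0% beside 9.07%, and the cyclic AMP response element TGACGTCA in 2.17% (Ift57) beside 3.02%. Base composition was alike, with a median GC content of 60% in member windows and 60.7% in those of tested genes. A match here is a run of letters, and none of these data measured binding.

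**Figure D2:**
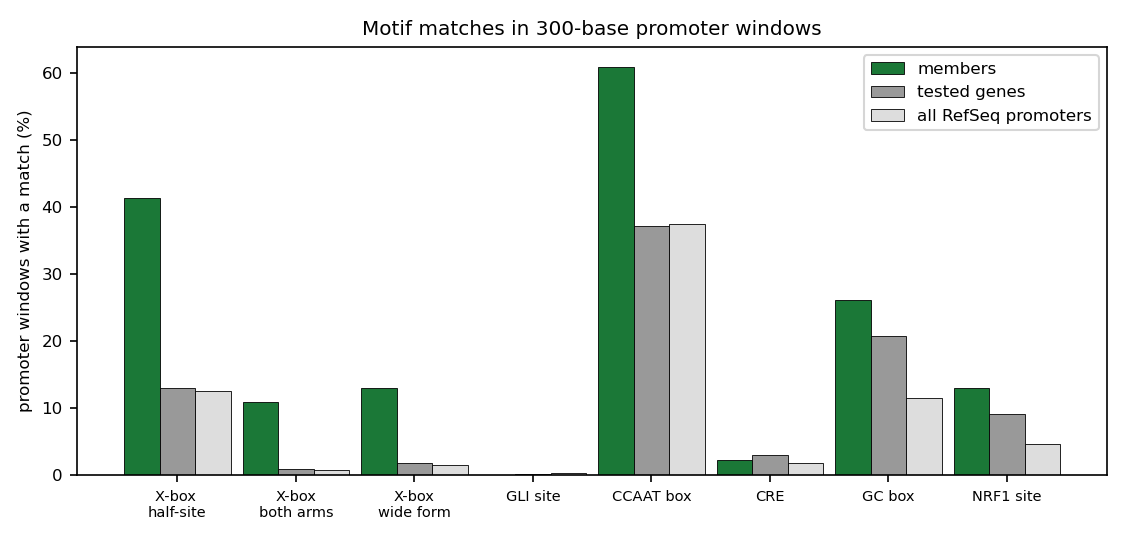
Share of promoter windows with at least 1 match to each of 8 motifs, in percent, for the 46 member windows (green), the 14110 windows of tested genes (dark grey) and all 32851 RefSeq windows (light grey). The half-site was found in 41.3% of member windows against 13.0% of tested-gene windows, and the X-box with both arms in 10.9% against 0.907%.

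Intraflagellar transport towards the tip is the task of the IFT-B subunits, of which 11 are members. None was called, 9 were above 0 and 2 below, and their median log2 fold change was 0.07 (range -0.08 to 0.23). 2 had an unadjusted p under 0.05, Ift27 and Ift80. Ift27 (ENSMUSG00000016637, chr15:78159465-78174108, GRCm38), the small GTPase of the train that is linked to BBSome export, stood at 35.5, 35.1, 37.2 and 33.0 CPM in controls and 47.2, 37.9, 45.0 and 35.0 CPM in Sufu-cKO. A pair of Sufu-cKO samples stood well above the controls, and the other two lay among them or just above. Its log2 fold change was 0.23 (SE 0.094, adjusted p = 0.164).

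Ift74 (ENSMUSG00000028576, chr4:94614491-94693229), which with Ift81 binds tubulin in the train core, had the highest level per length of all members. It stood at 95.1, 88.7, 88.5 and 92.6 CPM in controls and 90.6, 91.7, 97.6 and 103 CPM in Sufu-cKO, with overlapping groups and a log2 fold change of 0.07 (SE 0.059, adjusted p = 0.538). Ift88, the subunit whose loss abolishes cilia in many tissues, had 32.0 ± 2.82 CPM in controls and 35.4 ± 1.58 CPM in Sufu-cKO (SD, n = 4 each; log2 fold change 0.14, adjusted p = 0.305). Ift172, at the train's tip, had a log2 fold change of 0.13 (adjusted p = 0.339). The members below 0, Ift20 and Ift46, both had -0.08.

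The retrograde IFT-A train has 6 members, all with estimates above 0 (median 0.06, range 0.02 to 0.21), of which Ttc21b was called. Ttc21b (ENSMUSG00000034848, chr2:66184327-66256617) encodes the IFT-A subunit also known as Ift139 or Thm1, and mouse mutants of it have raised hedgehog signalling. It stood at 36.8, 33.4, 35.6 and 36.8 CPM in controls and 40.8, 42.4, 40.2 and 41.2 CPM in Sufu-cKO. Every Sufu-cKO sample was above every control. The log2 fold change was 0.21 (SE 0.061, 95% interval 0.07 to 0.34), or 1.15-fold, at an adjusted p of 0.0490. That p lies at the threshold: leaving out any 1 of the 8 samples gave 0.0560 to 0.165, and the call was also lost with limma-voom (0.0537), upper-quartile scaling (0.0773), total-count scaling (0.0742) and both other filters (0.0542 and 0.119). The authors' deposited table gave Ttc21b a false discovery rate of 0.435.

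The other IFT-A subunits had smaller estimates. Ift43 (ENSMUSG00000007867, chr12:86082561-86162458), the highest of them per length, stood at 24.3, 27.9, 26.1 and 24.3 CPM in controls and 27.6, 24.4, 24.7 and 28.0 CPM in Sufu-cKO. The ranges coincided and the log2 fold change was 0.03 (SE 0.080, adjusted p = 0.890). Ift122 and Ift140, which with Wdr19 form the core of IFT-A, had 0.03 and 0.02, and Wdr19 had 0.09. Wdr35 had 0.13 (adjusted p = 0.299).

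Return transport is powered by dynein-2, of which the heavy chain Dync2h1 and the light intermediate chain Dync2li1 are members. Neither was called. Dync2li1 (ENSMUSG00000024253, chr17:84626496-84655558) stood at 32.1, 28.6, 30.3 and 27.4 CPM in controls and 26.5, 29.0, 26.8 and 27.6 CPM in Sufu-cKO. The groups overlapped, with a log2 fold change of -0.11 (SE 0.073, adjusted p = 0.444). Dync2h1 had 87.5 ± 7.10 CPM in controls and 86.9 ± 4.41 CPM in Sufu-cKO (SD, n = 4 each), a log2 fold change of -0.01.

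The BBSome, an octamer that moves membrane proteins out of the cilium, is represented with its recruiting GTPase Arl6 and the chaperonin-like Bbs10 and Bbs12 by 10 members. Of these 9 were above 0 and 1 below (Bbs12, -0.10), with a median of 0.11, and 3 had an unadjusted p under 0.05. Bbs1 was called. Bbs1 (ENSMUSG00000006464, chr19:4886898-4906627) encodes the subunit that binds Arl6 on the membrane. It stood at 39.0, 39.8, 38.9 and 42.9 CPM in controls and 50.1, 49.5, 46.6 and 48.9 CPM in Sufu-cKO. All Sufu-cKO samples were above all controls. The log2 fold change was 0.28 (SE 0.060, 95% interval 0.15 to 0.41), or 1.21-fold, at an adjusted p of 0.0101. Leaving out any 1 sample kept it called, at 0.0121 to 0.0417, and so did the other 8 alternatives in scaling, filter and tool. The authors' deposited table gave Bbs1 a fold change of 1.21 and a false discovery rate of 0.106.

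Bbs7 (ENSMUSG00000037325, chr3:36573142-36613477), a propeller subunit of the BBSome, had the largest estimate of all members. It stood at 25.7, 22.4, 20.4 and 21.9 CPM in controls and 23.6, 32.0, 32.2 and 27.7 CPM in Sufu-cKO. Mut_295 lay within the controls, below Cont_294, and the other three lay above. The log2 fold change was 0.35 (SE 0.109, adjusted p = 0.0604), just outside the threshold. It was called with DESeq2 (adjusted p = 0.0284), without the low-count filter (0.0368), without Cont_294 (0.0463) and without Mut_295 (0.0146).

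Arl6 (ENSMUSG00000022722, chr16:59612949-59639391), the GTPase that recruits the BBSome, was the highest of this role per length. It stood at 44.3, 39.8, 38.3 and 41.1 CPM in controls and 44.4, 45.7, 45.4 and 51.5 CPM in Sufu-cKO. The groups touched without overlapping, since Cont_294 and Mut_295 were almost equal. The log2 fold change was 0.19 (SE 0.071, adjusted p = 0.114). Bbs4, which links the BBSome to pericentriolar material, had 31.8 ± 1.08 CPM in controls and 34.7 ± 1.14 CPM in Sufu-cKO (SD, n = 4 each), also without overlap (adjusted p = 0.262).

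**Figure D3:**
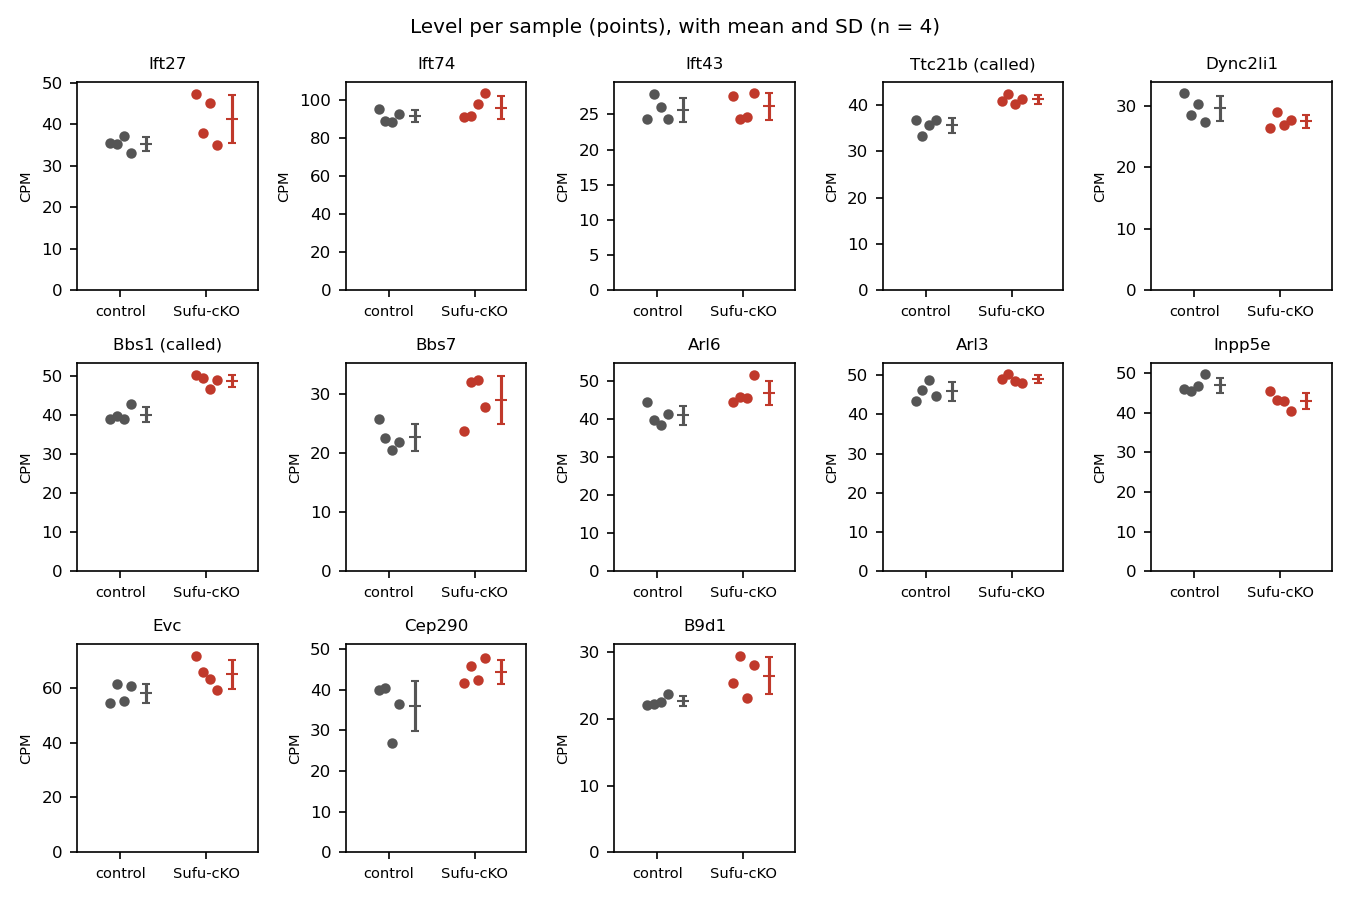
CPM in each of the 8 samples for 13 members, controls in grey and Sufu-cKO in red, with the mean and SD (n = 4) beside each group and every axis starting at 0. Bbs1 and Ttc21b are separated between the genotypes, while the Bbs7 points of Sufu-cKO spread from 23.6 to 32.2 CPM and Ift43 shows coinciding ranges.

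Membrane cargo delivery is represented by 4 members, 2 above and 2 below 0, none called and none with an unadjusted p under 0.05. Inpp5e (ENSMUSG00000026925, chr2:26396249-26409203), a lipid phosphatase that sets the phosphoinositides of the ciliary membrane, stood at 45.9, 45.5, 46.7 and 49.7 CPM in controls and 45.4, 43.1, 43.0 and 40.3 CPM in Sufu-cKO. The groups touched without overlapping, with a log2 fold change of -0.13 (SE 0.061, adjusted p = 0.246). Its exons share 874 bp with Pmpca on the opposite strand, and the strand setting of the counting is not given in the sources used here. Tulp3, which brings receptors such as Gpr161 into the cilium with IFT-A, had 59.4 ± 1.27 CPM in controls and 56.8 ± 0.37 CPM in Sufu-cKO (SD, n = 4 each), without overlap but with a log2 fold change of only -0.06 (adjusted p = 0.520).

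Arl3 (ENSMUSG00000025035, chr19:46531109-46573085), the GTPase that releases lipid-modified cargo inside the cilium, lies 42.3 kb from Sufu itself. It stood at 43.4, 46.3, 48.8 and 44.8 CPM in controls and 49.1, 50.3, 48.6 and 48.0 CPM in Sufu-cKO. The groups overlapped and the log2 fold change was 0.10 (SE 0.059, adjusted p = 0.382). Arl13b, the exchange factor of Arl3, had 0.11 (adjusted p = 0.518).

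Evc and Evc2 form a complex near the cilium base that passes the signal on from Smo, and their genes lie 1604 bp apart. Evc (ENSMUSG00000029122, chr5:37289098-37336894) stood at 54.5, 61.2, 55.2 and 60.4 CPM in controls and 71.6, 65.7, 63.2 and 59.0 CPM in Sufu-cKO. Mut_340 lay among the controls and the rest above them, for a log2 fold change of 0.17 (SE 0.071, adjusted p = 0.188). Evc2 had 32.8 ± 0.75 CPM in controls and 33.9 ± 2.20 CPM in Sufu-cKO (SD, n = 4 each; log2 fold change 0.05, adjusted p = 0.748). With genotype means removed, the log2 levels of the 2 genes correlated at r = 0.79 over the 8 samples, which share libraries and depth. The same measure ran from -0.96 to 0.97 over the 1081 pairs of members.

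The transition zone has 12 members, 6 above and 6 below 0, with a median of 0.00 and none called. Cep290 (ENSMUSG00000019971, chr10:100488289-100573655), which spans the gap between axoneme and membrane, stood at 39.9, 40.3, 27.0 and 36.6 CPM in controls and 41.6, 45.8, 42.3 and 47.9 CPM in Sufu-cKO. The groups did not overlap, and Cont_365 lay far below the other controls. Its log2 fold change was 0.31 (SE 0.114, adjusted p = 0.127), and 0.18 without Cont_365. Its exons share 881 bp with 4930430F08Rik on the opposite strand.

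B9d1 (ENSMUSG00000001039, chr11:61505144-61512931), of the complex that holds the B9 proteins, was the highest of this role per length. It stood at 22.1, 22.2, 22.5 and 23.8 CPM in controls and 25.4, 29.4, 23.2 and 28.0 CPM in Sufu-cKO. All but Mut_337 lay above the controls, with a log2 fold change of 0.22 (SE 0.085, adjusted p = 0.132). Its partner B9d2 had the lowest estimate of all members, -0.17 (SE 0.138, adjusted p = 0.548), at 9.25 ± 0.73 CPM in controls and 8.24 ± 1.46 CPM in Sufu-cKO (SD, n = 4 each). Mks1, the third of the B9 proteins, had 0.10 (adjusted p = 0.670).

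The remaining transition-zone members ran from -0.12 to 0.18. Rpgrip1l, a scaffold of the zone, had the highest of these (adjusted p = 0.226) and Tmem231, a membrane protein of the gate, the lowest (adjusted p = 0.394). The tectonics Tctn1, Tctn2 and Tctn3 had -0.09, -0.03 and 0.11, with SEs from 0.092 to 0.141. Cc2d2a, Tmem67 and Tmem216 had 0.04, -0.03 and -0.08. Of these genes, Tctn1 shares 1574 bp of exon with Hvcn1 on the opposite strand, the longest such overlap among the members. In the 5 roles with no called member (IFT-B, dynein-2, cargo delivery, Evc and transition zone), DESeq2 and limma-voom also called 0 members, and 5 had an unadjusted p under 0.05 with edgeR.

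Compared per length, as CPM per kb of exon averaged over all 8 samples, the members spanned 1.87 to 35.2. Ift74 stood highest at 35.2, followed by Ift52 at 22.0, Arl6 at 20.9, Arl3 at 19.0 and Ift20 at 15.9 CPM per kb. Tctn1 stood lowest at 1.87, below Wdr19 at 2.59, Rpgrip1l at 2.76 and Cep290 at 3.46 CPM per kb. Exon length was the union over annotated transcripts, so a gene with long alternative exons reads low. Members of 1 complex did not share 1 level: within IFT-B, Ift74 was at 35.2 and Ift80 at 5.20 CPM per kb, and within IFT-A, Ift43 was at 15.7 and Wdr19 at 2.59 CPM per kb.

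**Figure D4:**
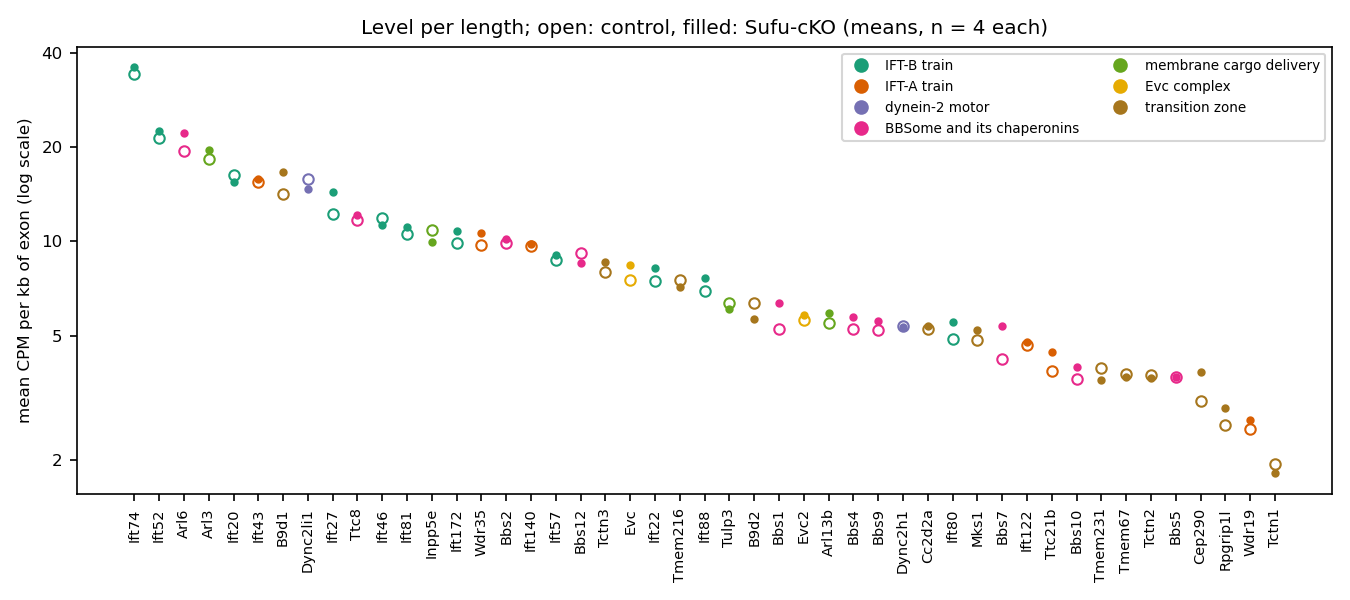
Mean CPM per kb of exon on a log scale for each of the 47 members, ordered by their mean over all samples, with controls as open and Sufu-cKO as filled points (n = 4 each), coloured by role. Levels ran from 35.2 for Ift74 to 1.87 for Tctn1, and the points of the 2 genotypes lie close together beside that range.

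The members moved little together from sample to sample within a genotype. Over the 1081 pairs of members, the median correlation of log2 levels with genotype means removed was 0.08. The median was 0.32 over the 45 pairs within the BBSome role. It was 0.06 within IFT-B, 0.02 within IFT-A, 0.03 within the transition zone and -0.14 within cargo delivery. Cont_365 had the lowest member levels, with a median of -0.04 (log2) from the control mean, and Mut_340 and Mut_295 the highest, at 0.10 and 0.09. The genes most like Bbs1 by this measure were 4933427D14Rik, Araf and Gm22027 (each r = 0.98). Those most like Ttc21b were Rrp15, Ribc1 and Mtmr14 (r = 0.98, 0.97 and 0.96), each over 8 samples. None of these genes was called. As the highest values picked from so many genes over so few samples, these correlations are a description only.

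Around the members, 103 other ciliary genes in 7 lists were tested, and 7 of them were called (6.80%), 2 higher and 5 lower, beside 11.0% of all tested genes (5.34% higher and 5.64% lower). None of 18 further IFT and motor subunits, 3 BBSome factors or 16 further transition-zone and nephronophthisis genes was called in the reported edgeR fit or by limma-voom. In these lists, an unadjusted p under 0.05 was reached by 2 of the 18 (11.1%), 0 of the 3 and 3 of the 16 (18.8%). The share over all tested genes was 22.5%. Kifap3, of the kinesin-2 motor, was called by DESeq2 and by edgeR without Mut_295. Kif3a, a motor subunit of kinesin-2, had a log2 fold change of 0.14 (adjusted p = 0.136). The called genes thus lay in the other lists.

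Of 19 further genes for membrane and lipid cargo, 3 fell. Adcy3, the adenylyl cyclase used as a marker of neuronal cilia, stood at 22.6, 26.3, 23.6 and 22.6 CPM in controls and 18.0, 17.8, 15.9 and 17.1 CPM in Sufu-cKO. It fell by 0.47 on the log2 scale (SE 0.083, adjusted p = 0.00337) with no overlap. Unc119, a chaperone of myristoylated cargo, fell by 0.35 (adjusted p = 0.0184), a call lost without Cont_345 (0.0583) or Cont_365 (0.0572).

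Gpr161, the ciliary receptor that restrains hedgehog signalling, stood at 114, 113, 121 and 119 CPM in controls and 101, 106, 104 and 102 CPM in Sufu-cKO. The groups were separate, and it fell by 0.18 (SE 0.049, adjusted p = 0.0354). That call held in 2 of the 8 fits that left out 1 sample (without Mut_295 or Mut_340) and was lost in the other 6, at 0.0626 to 0.0823, and it was also lost without the low-count filter (0.0646). Smo, the signal transducer of the pathway, had a log2 fold change of -0.12 (adjusted p = 0.403).

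Of 26 basal body and docking genes 1 was called, Intu, a planar polarity effector needed for cilium formation, which rose by 0.40 (SE 0.076, adjusted p = 0.00555). Of 10 disassembly genes, Hdac6, the tubulin deacetylase that acts when cilia are taken down, rose by 0.45 (adjusted p = 0.00221). Nedd9, the scaffold that activates Aurora A in the same process, fell by 0.44 (adjusted p = 0.00122). These 2 disassembly factors went in opposite directions, and the other 8 were not called.

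A list of 11 transcription factors held RFX genes together with Foxj1, Mcidas, Gmnc, Trp73 and Myb. Of these 9 were below 0, beside 7417 of all 15382 tested genes. The median was -0.23, the value of Rfx5. Rfx4 alone was called (9.09% of the list, beside 11.0% of all tested genes). Rfx4, an RFX factor of the developing brain, stood at 78.7, 77.0, 71.2 and 85.2 CPM in controls and 56.8, 68.5, 59.6 and 62.7 CPM in Sufu-cKO. It fell by 0.33 (SE 0.074, adjusted p = 0.0120), with every Sufu-cKO sample below every control. Rfx3, an RFX factor of ciliated cells, had 120.4 ± 9.07 CPM in controls and 121.9 ± 11.0 CPM in Sufu-cKO (SD, n = 4 each; log2 fold change 0.02). Foxj1, the switch for motile cilia, had -0.82 (SE 0.284, adjusted p = 0.125) and is also on the list of motile-cilia markers. It stood at 7.56 CPM in Mut_340 and at 18.7 CPM or more in the other Sufu-cKO samples, and without Mut_340 it was called, at -0.58 (adjusted p = 0.00661).

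**Figure D5:**
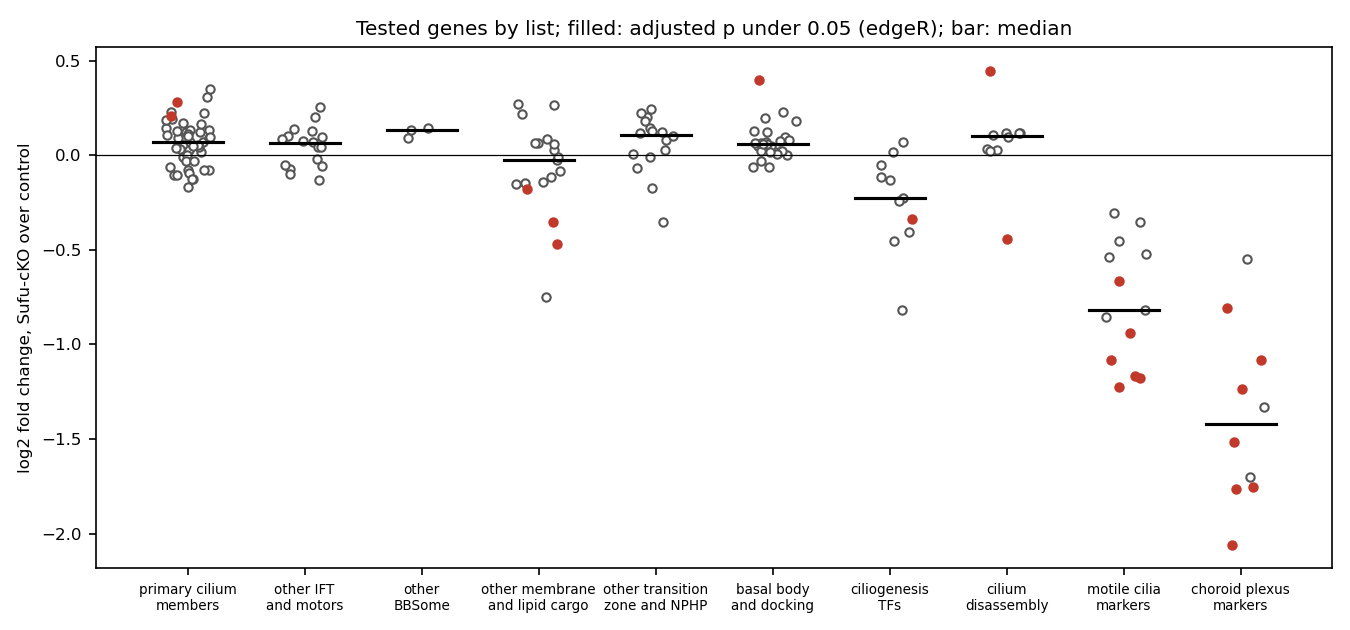
Log2 fold change, Sufu-cKO over control, of each tested gene in the member list, the 7 lists of other ciliary genes and 2 marker lists, with called genes filled and the median as a bar. Members centre on 0.07 and motile-cilia and choroid plexus markers on -0.82 and -1.42.

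Markers of motile cilia and of some other cell types moved with genotype, though not those of every list. The counts of called markers here and in the next paragraph stand beside 11.0% of all tested genes called (5.34% higher and 5.64% lower). Of 15 markers of multiciliated cells, 13 were tested, all 13 had estimates below 0 and 6 fell, with a median of -0.82. Their summed level was 93.3 to 112 CPM in controls and 44.0 to 70.7 CPM in Sufu-cKO, with Tmem212 at 0 in every sample. Spag6, of the central pair of motile axonemes, fell by 1.23 (adjusted p = 0.00176), and Tekt1, a tektin, by 0.94 (adjusted p = 0.00220). The primary cilium members thus stood at a median of 0.07 in the samples where these stood at -0.82.

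Of 10 choroid plexus markers 7 were called lower, and all 10 had estimates below 0. Their sums were 534 to 811 CPM in controls and 92.8 to 295.4 CPM in Sufu-cKO. Of 8 young-neuron markers 4 were called higher and all 8 had estimates above 0, with sums of 1579 to 1879 CPM against 2048 to 2219 CPM. Of 8 dorsal progenitor markers 2 were called higher (Pax6 and Sox2) and 3 lower (Emx1, Emx2 and Lhx2), with estimates below 0 for 6. Their sums were 1656 to 1898 CPM against 1470 to 1683 CPM, so the labelled tissue carried its defining markers in both genotypes. Microglial markers were called lower in 3 of 8 (42.8 to 57.4 against 32.6 to 41.5 CPM) and endothelial ones in 2 of 8 (304 to 350 against 255 to 306 CPM). In each of these 2 lists all 8 estimates were below 0. Of 8 pericyte and mesenchyme markers 1 was called lower, and estimates were below 0 for 6 and above 0 for 2. Their sums were 506 to 560 CPM in controls and 388, 403, 898 and 409 CPM in Sufu-cKO. Mut_337 alone was above the controls there, with Col1a1, a fibrillar collagen, at 221 CPM against 48.5 to 57.6 CPM in the other Sufu-cKO samples, which were all below the controls in the sum. None of 7 erythroid markers was called by edgeR, but all 7 had estimates below 0 (sums of 3384 to 4529 against 2902 to 3304 CPM). Of these, 3 had an unadjusted p under 0.05. In bulk tissue, fewer cells of a type and less RNA per cell cannot be told apart. The part of these shifts in the levels of the members was not tested.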

How the data were processed

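RNA was extracted with a Qiagen kit and made into stranded mRNA libraries with an Illumina TruSeq kit, per the labels' protocols. Alignment with STAR 2.4.2a and the genome GRCm38 are named in the submitters' processing notes. How reads were assigned to genes, and with which strand setting, is not given in the sources. Whole-number counts of the 8 samples were deposited and are the values tested. The second deposited table holds a normalised signal, each count divided by 1 size factor per sample, with the authors' fold change (a ratio), p-value and false discovery rate, used only where named.

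Counts were fitted with edgeR 4.0.16 in R 4.3.3 (filterByExpr with a minimum count of 10, TMM scaling, robust quasi-likelihood F-test, 2-sided, genotype only, 6 residual degrees of freedom). P-values were adjusted by Benjamini-Hochberg over all 15382 tested genes, which hold 99.9% of counts; calls were made under 0.05. Intervals are 95% intervals, computed from the derived SEs with a t quantile. The biological coefficient of variation was 12.8%. On simulated counts for the 15382 genes of this comparison, 63 of 100 genes changed 1.5-fold and 93 of 100 changed 2-fold were called, with 4 false calls. Every simulated gene had that same coefficient of variation, and the changed genes were drawn from all tested genes at any level. These counts therefore do not give the rate at which changes in the members would be called. Replicates differed by more than counting noise (chi-square per degree of freedom of 8.90 or more), so each counted as 1 sample.

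Exon lengths and exon overlaps came from GENCODE M21, which held 42462 of the 43629 IDs. Gene positions were those deposited with the normalised signal. In each role the text names the member highest per length and that with the largest absolute log2 fold change, besides all called members, and up to 3 called genes in each other list; further genes were named after their values were seen. The members and lists were chosen with earlier results of these data known. Alternatives were 3 scalings, 2 filters, DESeq2 1.42.0, limma-voom (limma 3.58.1), non-robust estimation and leaving out each sample.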

Additional observations from a re-analysis of the deposited data

Results flagged for a closer look

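In 6 of 114 groups of 4 samples examined, 1 sample stood apart from the other three by Dixon's test, close to the 1 in 20 that chance gives. Ift52 was at 65.1 CPM in Cont_294, against 58.3 to 58.9 CPM in the other controls. Ift52 was also at 68.1 CPM in Mut_340, against 61.2 to 61.7 CPM in the other Sufu-cKO samples. Ift57 was at 28.9 CPM in Mut_340, against 24.7 to 25.4 CPM. Rpgrip1l was at 33.1 CPM in Cont_365, against 39.2 to 40.3 CPM. Intu was at 31.2 CPM in Cont_365, against 37.3 to 37.6 CPM. Gli1 was at 43.6 CPM in Mut_340, against 50.9 to 52.1 CPM.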

How the results depend on the processing

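Of the members, 1 (Bbs1) was called with upper-quartile scaling, with total-count scaling, with at least 1 CPM in 4 samples and with limma-voom, against 2 in the reported fit. Leaving out 1 sample gave 1 to 2 members called, 5 to 10 other ciliary genes and 1079 to 1836 genes in all, the lowest total without Cont_345. DESeq2 called 12 other ciliary genes, against 7. The median log2 fold change of the members was 0.05 to 0.09 over the 16 alternatives, with 31 to 36 of 47 above 0. Over these fits the log2 fold change of Ift43 ran from -0.011 to 0.071, changing sign to -0.0045 without Cont_370, -0.00039 without Mut_295 and -0.011 without Mut_340, all far from the threshold. The causes of these changes were not tested. No paired analysis was possible because the genotypes share no replicate number. The depth, 199 to 3330 reads per member and sample, limits B9d2, Bbs5 and Bbs10 most.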
